A study of Mus musculus with 3 samples.

Results

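Integrin subunit genes that leukocytes use were followed through stimulated mouse macrophages: Itgam, Itgax, Itgal, Itgb2, Itga4, Itga5, Itga6, Itgav, Itgb1 and Itgb7. They were picked by gene symbol, with earlier results of these data known, and each of the 10 symbols matched 1 of the 55536 mouse gene IDs. The cells were primary macrophages grown from bone marrow of C57BL/6J mice, and polyadenylated RNA was sequenced in 3 libraries, each made from 1 µg of RNA. All 3 libraries belong to 1 group, treated for 180 min at 100 ng/mL. The labels name the agent in 2 ways, as lipid A in one field and as lipoprotein A in others, and it is called lipid A here. Sex and age were not collected. The 3 libraries have biological replicate numbers 1, 2 and 3 but share a donor identifier, so the spread between them may be technical. The permutation p-values below rest on that spread. The chi-square p-values set differences between these libraries against counting error only. No unstimulated cells were analysed here, and no value is a response to lipid A.

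Integrins are adhesion receptors made of an alpha and a beta chain, each encoded by its own gene, and a chain usually reaches the cell surface only as part of a pair. The alpha chain mostly sets which ligand is bound. The beta chain's short cytoplasmic tail binds talin and kindlin, which switch the receptor to its high-affinity form. Itgb2 encodes the beta chain shared by the receptors confined to leukocytes, while Itgb1 and Itgav encode chains found on most cell types, where they bind extracellular matrix. In macrophages these receptors serve adhesion, migration and uptake of complement-coated particles.

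Expected counts of mouse genes summed to 24450338, 34641026 and 60595742 in replicates 1, 2 and 3. The deepest library, replicate 3, also stood apart in a ribosomal RNA gene, CT010467.1, which held 8.4% of its counts, against 2.09% in replicate 1 and 1.89% in replicate 2. Levels below are in TPM (a share of all transcripts, scaled by transcript length), and detected means 1 TPM or more in every library. All 10 macrophage markers examined were detected, led by Lyz2 with 23350.95, 13754.52 and 17084.86 TPM. Neutrophil markers set 1 library apart. Their summed level over 14 genes was 161.7, 779.5 and 102.6 TPM in replicates 1, 2 and 3, with 5 genes detected and Ly6g at 0 in every library. Markers of T and B cells summed to 1.92, 3.55 and 1.85 TPM, with 1 of 12 genes detected. In bulk RNA, fewer cells of a type and less RNA per cell cannot be told apart.

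All 10 integrin genes were detected, where 18.1% of all mouse genes and 42.7% of protein-coding genes were. Mean levels spanned 4.407 TPM for Itgax to 316.2 TPM for Itgb1. The 10 genes together made 951.7, 1207 and 1036 TPM in replicates 1, 2 and 3. The beta genes Itgb1 and Itgb2 were at the top of the order, and the 2 genes below 10 TPM were Itgb7 and Itgax. At a stricter threshold of 5 TPM, 8 of the 10 genes were detected, all but Itgb7 and Itgax.

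**Figure D1:**
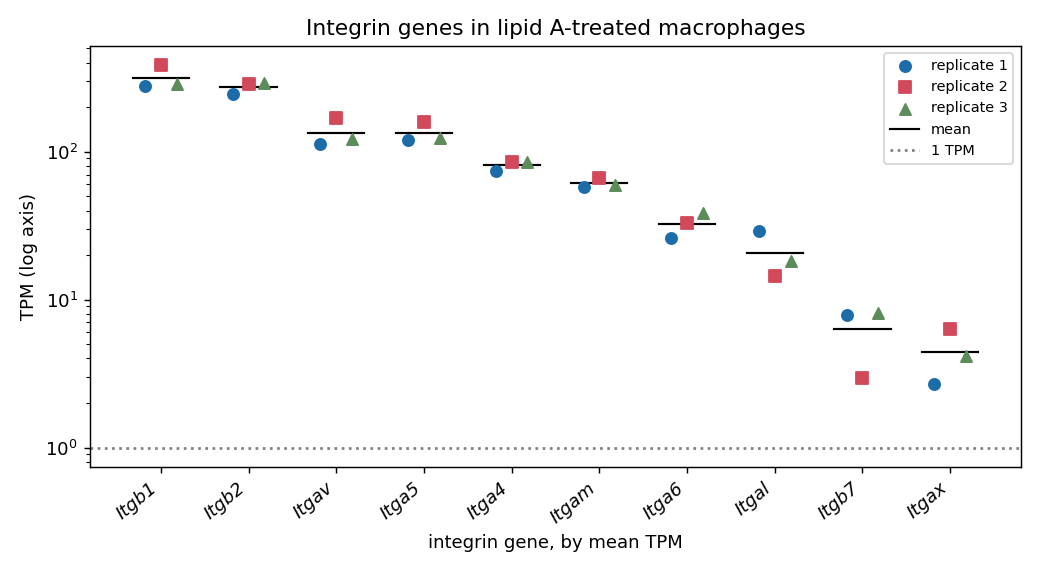
TPM (log axis) of the 10 integrin genes in each of the 3 lipid A-treated libraries, ordered by mean TPM; points are libraries, short lines are means, and the dotted line marks 1 TPM. Itgb1 and Itgb2 lay above 200 TPM in every library, and only Itgb7 and Itgax fell below 10 TPM.

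The leukocyte-restricted receptors share the beta chain CD18, encoded by Itgb2 (chromosome 10, 77530252 to 77565708, plus strand, mm10). Itgb2 had 243.73, 288.36 and 291.17 TPM in replicates 1, 2 and 3, a mean of 274.4 ± 26.62 TPM (SD, n = 3). Replicate 1 was the lowest and the other libraries lay close together. The gene ranked within the top 5.64% of detected genes, and Itgb2-201 made 94.8% of its TPM.

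Itgam encodes CD11b, the alpha chain of complement receptor Mac-1, which binds the complement fragment iC3b, fibrinogen and Icam1. It lies on chromosome 7 from 128062640 to 128118491 on the plus strand and had the highest level among the alpha genes that pair with Itgb2. Itgam had 57.65, 66.13 and 59.49 TPM in replicates 1, 2 and 3, a mean of 61.09 ± 4.461 TPM (SD, n = 3). It was the steadiest of the 10 genes between libraries. A protein-coding gene on the same strand, Gm49368, overlaps Itgam over 55809 bases, so the split of reads between them is uncertain. Gm49368 itself was listed at 0.28, 0.44 and 0.24 TPM.

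Itgal encodes CD11a, the alpha chain of LFA-1, which binds intercellular adhesion molecules such as Icam1 and is best known from lymphocytes. It lies on the same chromosome at 127296260 to 127335138, on the plus strand, 727501 bases before Itgam. Its level was 28.94, 14.38 and 18.16 TPM in replicates 1, 2 and 3, a mean of 20.49 ± 7.555 TPM (SD, n = 3). Replicate 1 was the high library and replicate 2 the low one, whereas the T and B cell markers summed highest in replicate 2. The part of other cells in the Itgal level was not tested beyond those values.

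Itgax encodes CD11c, the alpha chain of a further complement receptor, widely used as a dendritic cell marker and also expressed by many macrophages. It starts 11055 bases after the end of Itgam, at 128129547 to 128150657 on the plus strand. Itgax had 2.7, 6.35 and 4.17 TPM in replicates 1, 2 and 3, a mean of 4.407 ± 1.836 TPM (SD, n = 3). Replicate 2 was the highest, and replicate 1 the lowest. Of 8 dendritic cell markers, 2 were detected: Bst2, also an interferon-induced gene, had 932.02, 520.25 and 685.68 TPM, and the chemokine receptor gene Ccr7 had 1.38, 2.59 and 1.6 TPM. Xcr1, Clec9a and the other dendritic markers were below the detection threshold in at least 1 library. Itgad, a further leukocyte alpha gene that starts 3718 bases past the end of Itgax, had 0.19, 0.39 and 0.07 TPM and was not detected.

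Relative to Itgb2, the levels of its alpha partners were in the order Itgam, Itgal, Itgax in all 3 libraries. The log2 ratio of Itgam to Itgb2 was -2.16 ± 0.11 (SD, n = 3), a level 4.48-fold lower than that of Itgb2. For Itgal the log2 ratio to Itgb2 was -3.79 ± 0.65, and for Itgax it was -6.01 ± 0.49 (SD, n = 3 each). Summed TPM of Itgam, Itgal and Itgax was 0.314 times that of Itgb2, a log2 ratio of -1.67 ± 0.2 (SD, n = 3). Itgam exceeded Itgal 3.1-fold and Itgax 14.4-fold, with all 3 libraries on the same side. Ratios were taken of TPM + 0.1, and mRNA levels of the chains are no measure of receptor on the surface.

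Itgb1 encodes the beta chain of the matrix receptors (chromosome 8, 128685654 to 128733200, plus strand). Itgb1 had 278.25, 384.71 and 285.58 TPM in replicates 1, 2 and 3, a mean of 316.2 ± 59.46 TPM (SD, n = 3). Replicate 2 was the high library, and the others differed by less than 10 TPM. Its level and that of Itgb2 did not differ beyond their spread: the log2 ratio of Itgb2 to Itgb1 was -0.19 ± 0.22 (SD, n = 3), with 2 of 3 libraries on the lower side. Itgb1-201 made 98.3% of the gene's TPM. Itgb1-202, a transcript annotated as a target of nonsense-mediated decay, made 1.5%, or 5.08% in a second deposited quantification.

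Itga5 encodes the alpha chain of the main fibronectin receptor (chromosome 15, 103344286 to 103366763, minus strand). Its level was 119.6, 158.13 and 124.08 TPM in replicates 1, 2 and 3, a mean of 133.9 ± 21.07 TPM (SD, n = 3). As for Itgb1, replicate 2 was the high library, and the log2 ratio of Itga5 to Itgb1 varied least of the 17 ratios, at -1.23 ± 0.04 (SD, n = 3). Itga4 encodes the alpha chain of the receptors for Vcam1 and, with Itgb7, for Madcam1 (chromosome 2, 79255426 to 79333123, plus strand). Itga4 had 73.97, 84.58 and 85.62 TPM, a mean of 81.39 ± 6.447 TPM (SD, n = 3), with replicate 1 the lowest. Itga5 was 1.64-fold above Itga4, a log2 ratio of 0.71 ± 0.18 with all 3 libraries on the same side. Cerkl overlaps Itga4 on the opposite strand over 2581 bases, and had 1.8, 1.66 and 0.6 TPM.

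Itgav encodes an alpha chain that pairs with several beta chains and binds RGD-containing ligands such as vitronectin and osteopontin (chromosome 2, 83724397 to 83806916, plus strand). Its level was 113.03, 168.84 and 121.54 TPM in replicates 1, 2 and 3, a mean of 134.5 ± 30.07 TPM (SD, n = 3). Replicate 2 stood above the others here too. In these TPM its mean and that of Itga5 could not be ordered, with a log2 ratio of Itgav to Itga5 of -0.01 ± 0.09 (SD, n = 3). In the second quantification Itgav was lower, with a mean log2 ratio of -0.3757. The Itgav value depended on the transcripts counted, as described below for the 463-base Itgav-205. Counting transcripts of 2000 bases or more gave 73.84, 132.3 and 96.04 TPM for Itgav. The log2 ratio of Itgav to Itga5 was then -0.3973.

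Among the other possible beta partners of Itgav, Itgb5 was the most abundant, with 94.48, 68.38 and 102.68 TPM. Itgb3, whose chain pairs with that of Itgav in the vitronectin receptor, had 2.44, 5.75 and 4.12 TPM, and Itgb8 had 2.43, 4.01 and 2.48 TPM. Itgb5 was lowest in replicate 2, where Itgav was highest. Of the other integrin alpha genes, 1 of 11 was detected, Itga9, whose chain pairs with that of Itgb1, with 7.45, 12.19 and 5.6 TPM. Itgb4 and Itgb6 were not detected.

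Itga6 encodes the alpha chain of laminin receptors (chromosome 2, 71745616 to 71858416, plus strand). It had 25.96, 32.94 and 38.51 TPM in replicates 1, 2 and 3, a mean of 32.47 ± 6.288 TPM (SD, n = 3). Replicate 3 was the highest and replicate 1 the lowest. The log2 ratio of Itga6 to Itgb1 was -3.28 ± 0.35 (SD, n = 3). Counting only transcripts annotated as protein-coding, Itga6 had 10.97, 15.35 and 19.76 TPM, and the log2 ratio to Itgb1 was then -4.35. Summed TPM of Itga4, Itga5, Itga6 and Itgav was 1.21 times that of Itgb1, a log2 ratio of 0.28 ± 0.08 (SD, n = 3). That mean log2 ratio was 0.2074 over protein-coding transcripts, 0.1271 over transcripts of 2000 bases or more, and 0.2015 in the second quantification.

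Itgb7 encodes a beta chain that pairs with those of Itga4 and Itgae and takes part in homing of lymphocytes to the gut (chromosome 15, 102215995 to 102231944, minus strand). Its level was 7.86, 2.97 and 8.15 TPM in replicates 1, 2 and 3, a mean of 6.327 ± 2.911 TPM (SD, n = 3). Replicate 2 was the low library. On the log2 scale, Itgb7 was -5.74 ± 1.07 relative to Itgb1 (SD, n = 3), the largest SD among the 17 ratios, and without replicate 2 it was -5.12. Itga4 exceeded Itgb7 13.9-fold, with a log2 ratio of 3.79 ± 0.86 (SD, n = 3). Counting transcripts of 2000 bases or more lowered mean Itgb7 to 3.58 TPM and gave log2 ratios of 4.51 for Itga4 over Itgb7 and -6.46 for Itgb7 over Itgb1. Itgae, whose chain is the other alpha partner of that of Itgb7, had 0.03, 0.06 and 0.01 TPM.

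**Figure D2:**
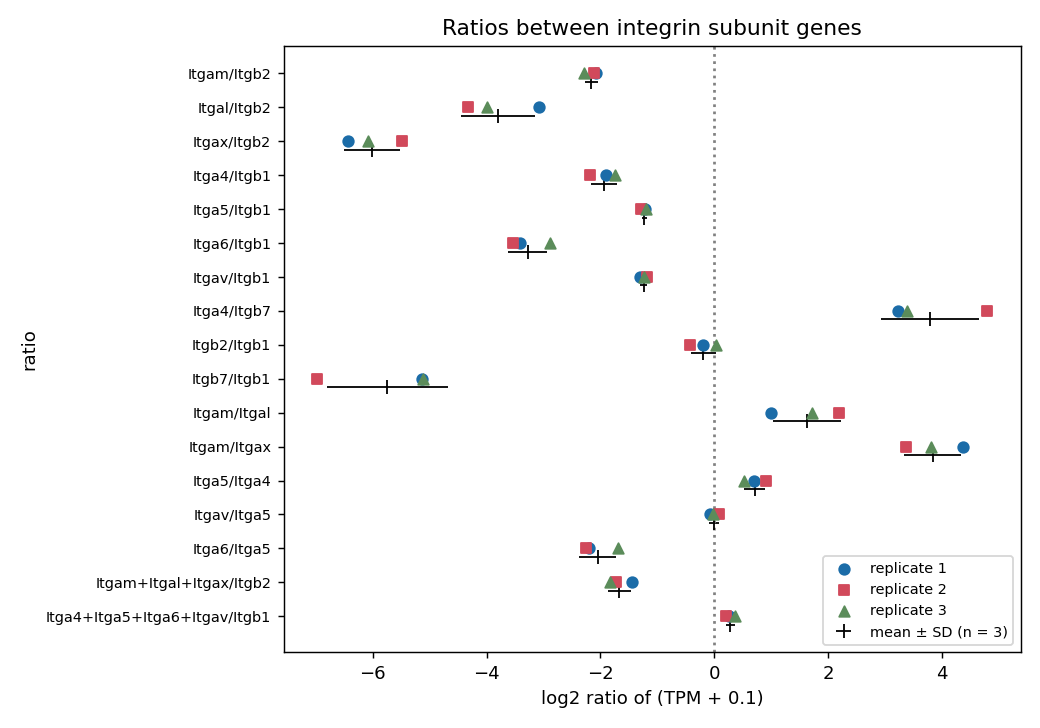
Log2 ratios of TPM + 0.1 between integrin subunit genes in the 3 lipid A-treated libraries; points are libraries, and the bar below each row is the mean ± SD (n = 3). The dotted line marks equal levels, on which Itgav/Itga5 and Itgb2/Itgb1 lay closest.

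Of the 17 ratios, 15 had all 3 libraries on the same side of equality, and 13 of them were over 2-fold. With neighbours in the order of mean TPM, 5 of 9 differed in the same direction in every library and by more than the SD. The pairs that did not were Itgb1 and Itgb2, Itgav and Itga5, Itga6 and Itgal, and Itgb7 and Itgax. The order was taken from these same libraries, which favours agreement in direction, so the count of neighbours is a description only. An exact permutation test that flips the signs of the 3 log2 ratios (two-sided), run on all 26 comparisons, cannot go below p = 0.25 with 3 libraries, and 20 reached that value, so none could pass 0.05.

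Several of these genes were read as more than 1 transcript, and coding stretches in which the annotated transcripts differ are printed because they change the encoded chain. The transcripts also differ in other parts, which are not printed. Shares are percentages of a gene's summed TPM, from the first quantification and, as a second value, from the second. They are labelled alignment-based and read-based in the figure. These labels were inferred from the column headings, as the tools are not given in the sources used. In 5 genes the leading transcript made over 90% as a mean over libraries: Itgb1-201, Itga4-201, Itga5-201, Itgb2-201 and Itgax-201. Single libraries went as low as 83.5%, for Itgax-201 in replicate 3. The leading transcript was the same in both quantifications for 9 of the 10 genes, all but Itgal.

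**Figure D3:**
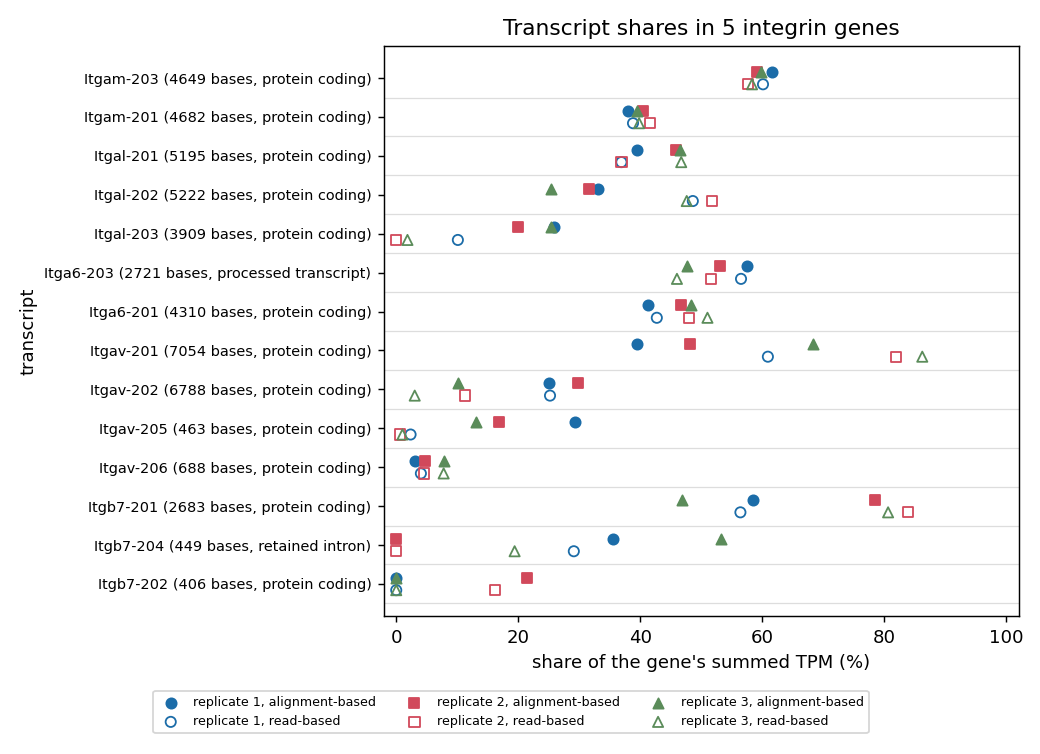
Share of each gene's summed TPM (%) held by named transcripts of Itgam, Itgal, Itga6, Itgav and Itgb7. Filled symbols are the first quantification (labelled alignment-based) and open symbols the second (labelled read-based), in 3 libraries. Itgam and Itga6 shares lay close between the quantifications, whereas Itgav-205 and Itgal-203 were lower in the second one.

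Itgam was read as a pair of protein-coding transcripts that differ by 3 coding bases. Itgam-203 held 60.1% ± 1.29 and Itgam-201 held 39.2% ± 1.25 (SD, n = 3), and the second quantification gave means of 58.7% and 40.1%. The order was the same in every library and in both quantifications. The 3 bases lie at the start of exon 14 of Itgam-201, at chr7:128101634-128101636 (mm10, plus strand), and their presence changes the coding length from 3459 to 3462 bases. The lines give the 3 bases in capitals with 24 exonic bases on each side from the GENCODE M21 transcripts, and the same join in the transcript that lacks them.
Itgam-201: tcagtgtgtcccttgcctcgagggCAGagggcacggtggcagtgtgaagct
Itgam-203: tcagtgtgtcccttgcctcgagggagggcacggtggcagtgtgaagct

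Itgal also has transcripts that differ by 3 coding bases, here at the end of exon 18 of Itgal-201, at chr7:127317364-127317366 (mm10, plus strand). Itgal-201 held 43.9% ± 3.9, Itgal-202 held 30.0% ± 4.04 and Itgal-203 held 23.8% ± 3.32 (SD, n = 3). The second quantification put Itgal-202 first at 49.3%, with Itgal-201 at 40.1% and Itgal-203 at 3.98%. The order of the transcripts of Itgal therefore depended on the quantification. The capitals mark the 3 bases.
Itgal-201: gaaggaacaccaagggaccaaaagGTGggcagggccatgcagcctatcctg
Itgal-202: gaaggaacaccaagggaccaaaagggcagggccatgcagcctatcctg

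The alternative cytoplasmic tails of the laminin receptor, known as alpha6A and alpha6B, come from use or skipping of a 130-base exon. In the annotation Itga6-201 holds that exon as exon 25 of 26, and Itga6-202 lacks it. Itga6-201 held 45.4% ± 3.65 of Itga6 TPM (SD, n = 3). Itga6-202 held 0.963%, 0% and 3.04% in replicates 1, 2 and 3, on 15.62, 0 and 179.37 estimated counts. In the second quantification its shares were 0.648%, 0.112% and 1.56%. Itga6-202 thus ran far below the transcript with the exon in each library. The count of 0 in replicate 2 allows up to 0.123% of the gene's 2430.54 counts, which covers counting error only. The coding part of the exon, 105 bases at chr2:71853534-71853638 (mm10, plus strand), is printed in capitals because its use or skipping changes the tail.
Itga6-201: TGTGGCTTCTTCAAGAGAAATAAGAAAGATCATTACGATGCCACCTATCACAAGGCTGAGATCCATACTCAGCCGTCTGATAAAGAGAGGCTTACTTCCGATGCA

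The remaining Itga6 signal was assigned to Itga6-203, a transcript of 2721 bases in 3 exons that is annotated as a processed transcript, without a coding sequence. Itga6-203 held 57.5%, 53.1% and 47.6% of the gene's TPM in replicates 1, 2 and 3, and 56.5%, 51.6% and 46% in the second quantification. It was above Itga6-201 in replicates 1 and 2 and below it in replicate 3, in both quantifications. Its last exon of 2563 bases runs 1658 bases past the annotated end of Itga6-201.

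Shares of Itgav transcripts varied between libraries. Itgav-201 held 39.4%, 48.1% and 68.3% of Itgav TPM in replicates 1, 2 and 3, and 60.9%, 81.9% and 86.2% in the second quantification. Itgav-202, which lacks exons 5 to 6 of Itgav-201, held 25.1%, 29.8% and 10.1%, and 25.2%, 11.3% and 3.03% in the second. Both quantifications gave Itgav-201 its highest share and Itgav-202 its lowest in replicate 3. The 463-base Itgav-205 held 29.3%, 16.9% and 13% on 112.43, 122.48 and 119.07 counts, but 2.35%, 0.658% and 1.02% in the second quantification. Itgav-206, of 688 bases, held a mean of 5.24%. The exons missing from Itgav-202 are 108 coding bases between chr2:83761868-83763697 (mm10, plus strand), joined here as in the mRNA and printed in capitals.
Itgav-201: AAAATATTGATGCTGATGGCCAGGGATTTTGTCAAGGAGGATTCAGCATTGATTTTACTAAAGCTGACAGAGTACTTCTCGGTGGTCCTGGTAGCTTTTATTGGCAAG

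For Itgb7 the coding transcript Itgb7-201 held 58.4%, 78.5% and 46.8% in replicates 1, 2 and 3. Itgb7-204, a retained-intron transcript of 449 bases, held 35.6%, 0% and 53.2%, on 8.92, 0 and 30.44 counts. In the second quantification Itgb7-204 held 29.1%, 0% and 19.4%. A few counts on a short transcript thus made a large share of the TPM of this low gene in replicates 1 and 3. The count of 0 in replicate 2 allows up to 2.27% of the gene's 132 counts. That limit is a share of counts, and on a short transcript the share of TPM can be far larger. In the same library, 2 counts on the 406-base Itgb7-202 made 21.5% of Itgb7 TPM. With protein-coding transcripts alone, Itgb7 had 5.06, 2.97 and 3.82 TPM, and replicate 2 remained the lowest. Itgb7-202, of 406 bases, held a mean of 7.18%, which came from 2 counts in replicate 2. The 352-base retained-intron transcript Itgax-202 held 15.1% of Itgax TPM in replicate 3, on 2.42 counts.

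Libraries were then compared with each other in CPM (counts scaled to a common library total with edgeR's TMM factors). A chi-square test of equal rates in the 3 libraries called 10 of 10 integrin genes at an adjusted p below 0.05, where it called 77.5% of the 11611 genes tested. The test compares these libraries, counts only sampling error, and calls small differences in deep genes. The ratio of the highest to the lowest library was 1.09 for Itgam, 1.18 for Itgb2 and Itga4, and above 2 for Itgal, Itgb7 and Itgax. Itgam was called with a Benjamini-Hochberg adjusted p of 8.18e-05 by the chi-square test on edgeR-scaled counts, and lost its call without replicate 1, at an adjusted p of 0.0514. Itgb7, with 189, 132 and 393 counts, lost its call without replicate 2, at an adjusted p of 0.158.

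Itgal and Itgb7 were highest in replicate 1 and lowest in replicate 2. Itgal had 88.73, 42.66 and 55.69 CPM in replicates 1, 2 and 3, a 2.08-fold range. Itgb7 had 7.894, 3.67 and 6.81 CPM, a 2.15-fold range. Itgax ran the other way, with 6.856, 15.29 and 9.046 CPM, a 2.23-fold range that was highest in replicate 2 and lowest in replicate 1. Itgav had 332.7, 566.1 and 442.8 CPM, also lowest in replicate 1. Itga6 had 54.16, 66.7 and 84.66 CPM and was highest in replicate 3.

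Replicate 2 was the highest library for 5 of 10 integrin genes (Itgam, Itgax, Itga5, Itgav and Itgb1), where it was for 37.8% of all genes tested. It was also the library with the highest neutrophil sum, and with the most Pf4, a megakaryocyte and platelet chemokine gene at 322.29, 1001.39 and 225.84 TPM. The part of those markers in the integrin values was not tested. Replicate 3 was the highest for 3 genes (Itgb2, Itga4 and Itga6), against 30.6% of all genes, and replicate 1 for 2 genes (Itgal and Itgb7), against 31.6%. Replicate 1 was the lowest for 8 of 10, against 32.8% of all genes, replicate 2 for 2, against 36.6%, and replicate 3 for 0, against 30.5%. The median deviation of the 10 genes, a library's log2 CPM minus the mean of the others, was -0.21 in replicate 1, 0.07 in replicate 2 and 0.02 in replicate 3. Over all genes tested it was 0.001, 0.014 and 0.007. With a trend on gene length removed, the median of the 10 genes was -0.17, 0.02 and -0.03. Replicate 1 then lay above the mean of the others for 3 genes rather than 2.

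**Figure D4:**
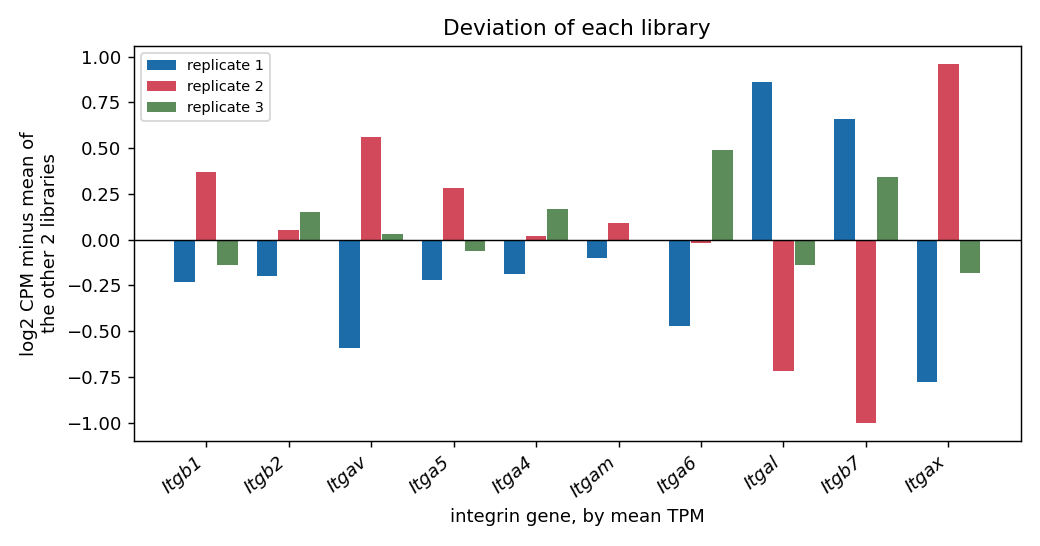
Log2 CPM of each of the 3 lipid A-treated libraries minus the mean of the other 2, for the 10 integrin genes ordered by mean TPM; bars are single libraries. Replicate 1 bars were negative for 8 genes and positive for Itgal and Itgb7, and the longest bars were those of Itgal, Itgb7 and Itgax.

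The spread between libraries was described for each integrin gene. The biological coefficient of variation, as estimated by edgeR per gene, had a median of 19.4% and ran between 17.3% for Itgam and 28.7% for Itgb7, with a median of 21.3% over all genes tested. The SD of log2 CPM had a median of 0.268 over the 10 genes and 0.243 over all genes tested.

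Genes around the receptors were read from lists of symbols. Of 34 ligand genes 12 were detected. Spp1, which encodes osteopontin, a ligand of the Itgav receptors, had 3506.96, 4368.54 and 3193.97 TPM. Icam1, the ligand of the receptors with Itgal and Itgam, had 1512.92, 1235.72 and 1489.19 TPM. C3, the precursor of the complement fragment bound by the Itgam and Itgax receptors, had 356.74, 253.88 and 283.41 TPM, and the lowest detected ligand gene was F11r at a mean of 3.233 TPM.

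Genes that regulate the switching of integrins were largely detected, with 21 of 26 on the list. That list holds negative regulators as well as activators. Rap1b, a small GTPase that recruits talin, had 744.99, 847.84 and 654.14 TPM. Adaptor genes Fyb and Skap2 averaged 275.5 and 134.4 TPM, and the lowest detected gene was Rasgrp4, an exchange factor, at 2.947 TPM. In a separate list of inhibitors of activation, 8 of 10 genes were detected. Flna, which encodes filamin A and competes with talin for the beta tail, had 144.87, 265.96 and 186.77 TPM. Tagap averaged 122 TPM and Filip1l 69.37 TPM, and Dok2, an adaptor, was lowest at 10 TPM.

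In the list of focal adhesion and podosome adaptors, 16 of 22 genes were detected. The list also holds Hic1, which encodes a transcription factor rather than an adaptor and was not detected. Highest were Zyx (zyxin) at a mean of 221.1, Actn1 (alpha-actinin) at 128 and Ptk2b (the kinase Pyk2) at 117 TPM. Ptk2, which encodes focal adhesion kinase, was the lowest detected at 1.477 TPM, below the related Ptk2b in each library. Kinases and adaptors downstream of leukocyte integrins were detected for 12 of 14 genes. Tyrobp and Fcer1g, which encode adaptors with immunoreceptor motifs, averaged 2908 and 2091 TPM, and Lcp2 had 324.6 TPM. The Src-family kinase gene Fgr was the lowest detected at 2.827 TPM.

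All 13 membrane partner genes were detected, with Cd14, Cd63 and Fcgr3 at means of 1652, 1217 and 839.5 TPM and Cav1 (caveolin) the lowest at 29.21 TPM. Trafficking genes were detected for 14 of 16, led by Dab2, an endocytic adaptor, at a mean of 302.1, Rab11a, a recycling GTPase, at 192.3 and Vps26a, a retromer subunit, at 118.4 TPM, and with Rab4a the lowest at 1.517 TPM. The chi-square test of equal rates called 14 of the 16 ligand genes tested, 20 of 22 on the switching list and 8 of 10 inhibitors. It also called 16 of 17 adhesion adaptors, 12 of 12 kinases and adaptors, 13 of 13 membrane partners and 13 of 14 trafficking genes. These shares stand beside the 77.5% of all genes tested, and they compare libraries only.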

How the data were processed

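Polyadenylated RNA of 3 libraries from 1 group was analysed. The authors deposited, per the file headers, expected counts, TPM and FPKM per gene and transcript, the percent of a gene that each transcript makes up, and a second set of estimated counts and TPM per transcript. The deposited text names mm10 and GENCODE M21; the aligner, the quantifier and strandedness are not given in the sources used. Entries that are no mouse gene (26345, holding 0.117%, 0.09935% and 0.08198% of counts) were left out of library sizes and tests.

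Here TPM was used as deposited, the second TPM was summed per gene, and the percent column was recomputed from TPM, moving by at most 0.0732 points. Expected counts were rounded, and genes were filtered with filterByExpr and scaled by TMM in edgeR 4.0.16 (R 4.3.3); DESeq2 1.42.0 gave alternative size factors. Equal rates were tested by chi-square with Benjamini-Hochberg adjustment over 11611 genes, and ratios of TPM + 0.1 by an exact sign-flip permutation test. The procedure was tested on simulated data, where changed genes with few counts were missed more often. For the chi-square test the simulated counts held sampling error only, without added spread between libraries. No other count test was possible with 1 group.

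The members and gene lists were chosen with earlier results of these data known. The 10 genes, the 3 highest and the lowest detected gene of each list, and transcripts of at least 5% of a gene (at most 4 per gene) were named, except that marker lists for cell types are mostly given as sums. Outside that rule, Gm49368, Cerkl, Itgad, Itgae, Itgb4, Itgb6, Xcr1, Clec9a, Ly6g, Hic1, Itga6-202 and the printed stretches were chosen after values were seen. So were the counts over protein-coding transcripts and over transcripts of 2000 bases or more.

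Other cell type lists were natural killer (0 of 6 detected), fibroblast and stromal (0 of 7), endothelial (2 of 6), megakaryocyte and platelet (2 of 6) and mast cell and basophil (0 of 6). Intervals and limits cover counting error only.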

Additional observations from a re-analysis of the deposited data

How the results depend on the processing

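The ratios were recomputed with the second quantification, FPKM, other pseudocounts and each replicate left out. Among ratios, directions turned for 3 neighbouring pairs whose difference was within the SD. Itgav over Itga5 ranged between -0.0556 and 0.0323 with a replicate left out (0.0065 without replicate 3) and was 0.0308 over protein-coding transcripts (log2). With the second quantification Itgav over Itga5 was -0.3757, and over transcripts of 2000 bases or more it was -0.3973. Itgb7 over Itgax ranged between -0.0605 (without replicate 1) and 1.2287 (without replicate 2), and was -0.0274 over protein-coding transcripts and -0.1778 over transcripts of 2000 bases or more, and Itga6 over Itgal was -0.3839 over protein-coding transcripts. Without replicate 2, the library with the high neutrophil sum, no ratio turned. Median deviation of the 10 genes in replicate 3 was -0.0709 with library totals and -0.0344 with a length trend removed. For the turned ratios, the settings differ in the libraries or transcripts counted. The cause of the turned deviations was not tested. Equal rates were called for 9 to 10 of the 10 genes with a replicate left out, and for 10 with library totals, DESeq2 size factors, no count filter and the second quantification. The filter setting moved the percent called over all genes to 49.6, and leaving out replicates 1, 2 and 3 gave 64.3, 50.6 and 58.8. The second quantification gave lower mean TPM for all 10 genes, by over 1.5 times for Itgb7 (4.143), and by more than the SD for Itgam (50.13), Itgb2 (220.6), Itga4 (68.39) and Itgav (93.4). The median ratio of second to first TPM over all detected genes was also below 1, at 0.761, 0.959 and 0.829 in replicates 1, 2 and 3. Itgb7 and Itgax had the fewest counts, 132 to 556 a library. No paired analysis was possible because there is 1 group.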
